A study of Mus musculus with 48 samples.

Results

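The glucocorticoid response of the mouse cortex was followed through the RNA of 9 genes: the receptors Nr3c1 and Nr3c2, the receptor co-chaperone Fkbp5, and the hormone-induced transcripts Tsc22d3, Sgk1, Plin4, Zbtb16, Cdkn1a and Hif3a. These genes were chosen by name, as known members of this response, after Tsc22d3 had been seen to differ between 5m and 18m in ribosome-associated RNA of synaptosomes in these same libraries. They are 9 of the 48526 genes in the count table, and the identifiers of all 9 were found there. All 9 passed the filter on low counts in each of the 4 fractions, although Plin4 and Hif3a lay near the limit of detection in synaptosomes, as did Plin4 in SC_TH at 3w.

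The libraries came from 12 male C57BL/6JRj mice, 4 at each age: 3 weeks (3w), adult (5m, given as 6 months in the sample titles) and old (18m). The animals were wild type, and no group received hormone or any other treatment. Each mouse gave 4 libraries from its cortex: input RNA of the total homogenate (input_TH), input RNA of the synaptosome preparation (input_SYN), and from each of these the RNA that sedimented through a sucrose cushion, which collects ribosomes (SC_TH and SC_SYN). A synaptosome is a pinched-off nerve ending that keeps attached material of neighbouring cells. The 48 libraries held from 1780267 to 18590040 counted reads, with medians of 10815834 in input_TH, 8643431 in SC_TH, 3756951 in input_SYN and 7298371 in SC_SYN. The median Pearson correlation of a library with the others of its group was between 0.957 and 0.995, and no library was set aside.

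Corticosterone, the glucocorticoid of mice, enters the cell and binds the glucocorticoid receptor, which the gene Nr3c1 encodes, and the mineralocorticoid receptor, which Nr3c2 encodes and which binds the hormone with higher affinity. The bound receptor leaves a complex of heat shock proteins and immunophilins, moves to the nucleus and binds a palindromic response element, from which it raises the transcription of a set of genes that includes Tsc22d3, Fkbp5, Sgk1 and Per1. Secretion follows the time of day and rises with stress. The hormone itself was not analysed here, and the labels give no hour of tissue collection.

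The response element was searched for around the gene starts, to show what sequence these genes carry there. RefSeq (GRCm38.p6) gave windows of 300 bases, from 250 bases before to 50 after a gene start, for 7 of the 9 genes. The palindrome searched was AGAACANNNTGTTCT, which reads the same on both strands, and its single arm AGAACA,  was searched on both strands as well. An exact palindrome stood in 3 of all 32851 windows (0.00913%), and 1 of these 3 belonged to Sgk1. Sgk1 has 6 windows, and that one lies at chr10:21993640-21993939 on the plus strand, with the palindrome at 21993701 to 21993715 and its first base 189 bases before the start. Of the 3 windows of Tsc22d3, the one at chrX:140600473-140600772 on the minus strand held the single arm and no palindrome with up to 2 mismatches. Both windows are shown 5′ to 3′ on the strand of the gene, with the palindrome of Sgk1 and the single arm of Tsc22d3 in capitals (TGTTCT is the arm read on the other strand).
Sgk1: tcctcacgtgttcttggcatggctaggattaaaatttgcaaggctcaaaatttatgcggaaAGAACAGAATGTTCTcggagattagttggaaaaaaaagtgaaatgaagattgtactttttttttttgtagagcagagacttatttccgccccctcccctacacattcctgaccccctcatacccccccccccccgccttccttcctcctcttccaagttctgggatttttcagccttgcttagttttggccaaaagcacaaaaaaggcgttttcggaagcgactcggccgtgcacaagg
Tsc22d3: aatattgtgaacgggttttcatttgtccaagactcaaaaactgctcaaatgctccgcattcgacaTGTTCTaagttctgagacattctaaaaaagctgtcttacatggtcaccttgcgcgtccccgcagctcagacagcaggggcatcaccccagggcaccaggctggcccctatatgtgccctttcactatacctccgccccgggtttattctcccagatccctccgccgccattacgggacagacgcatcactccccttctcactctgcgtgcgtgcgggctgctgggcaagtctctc

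A palindrome with up to 2 mismatches in its 12 fixed bases stood in 1.84% of all windows and in 2 of the 15 windows of the 9 genes, both of Sgk1. The single arm stood in 19.0% of all windows and in 4 of the 15, of which 3 were windows of Sgk1 and 1 was the window of Tsc22d3 shown above. The windows of Fkbp5, Plin4, Hif3a, Cdkn1a and Nr3c2 held neither, which says only that these letters are not in those 300 bases.

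Levels were given as CPM, the reads of a gene scaled to a common library total, here by TMM (trimmed mean of M values) among the 12 libraries of a fraction, so CPM of different fractions are not on a common scale. Per length of exon, as CPM per kilobase (RPKM), Zbtb16 was the most abundant of the 9 in input_TH at 3w, 5m and 18m, with 19.1 ± 2.51, 27.2 ± 2.96 and 22.8 ± 2.00 RPKM (SD, n = 4). At 5m it was followed in input_TH by Sgk1 at 18.1 ± 0.983, Tsc22d3 at 16.7 ± 1.15, Nr3c1 at 12.6 ± 0.786, Nr3c2 at 9.90 ± 0.331, Cdkn1a at 5.47 ± 0.998, Fkbp5 at 4.71 ± 0.769, Plin4 at 4.31 ± 0.451 and Hif3a at 2.71 ± 0.223 RPKM. The libraries of Sgk1 and Tsc22d3 overlapped in that order, as did those of Cdkn1a and Fkbp5 and those of Fkbp5 and Plin4, while the other neighbours were apart. In SC_SYN at 5m Tsc22d3 stood first, at 16.6 ± 1.32 RPKM, and overlapped with Zbtb16 at 15.5 ± 2.16 RPKM. At 3w and 18m Tsc22d3 had 9.58 ± 1.11 and 8.43 ± 0.717 RPKM in SC_SYN.

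**Figure D1:**
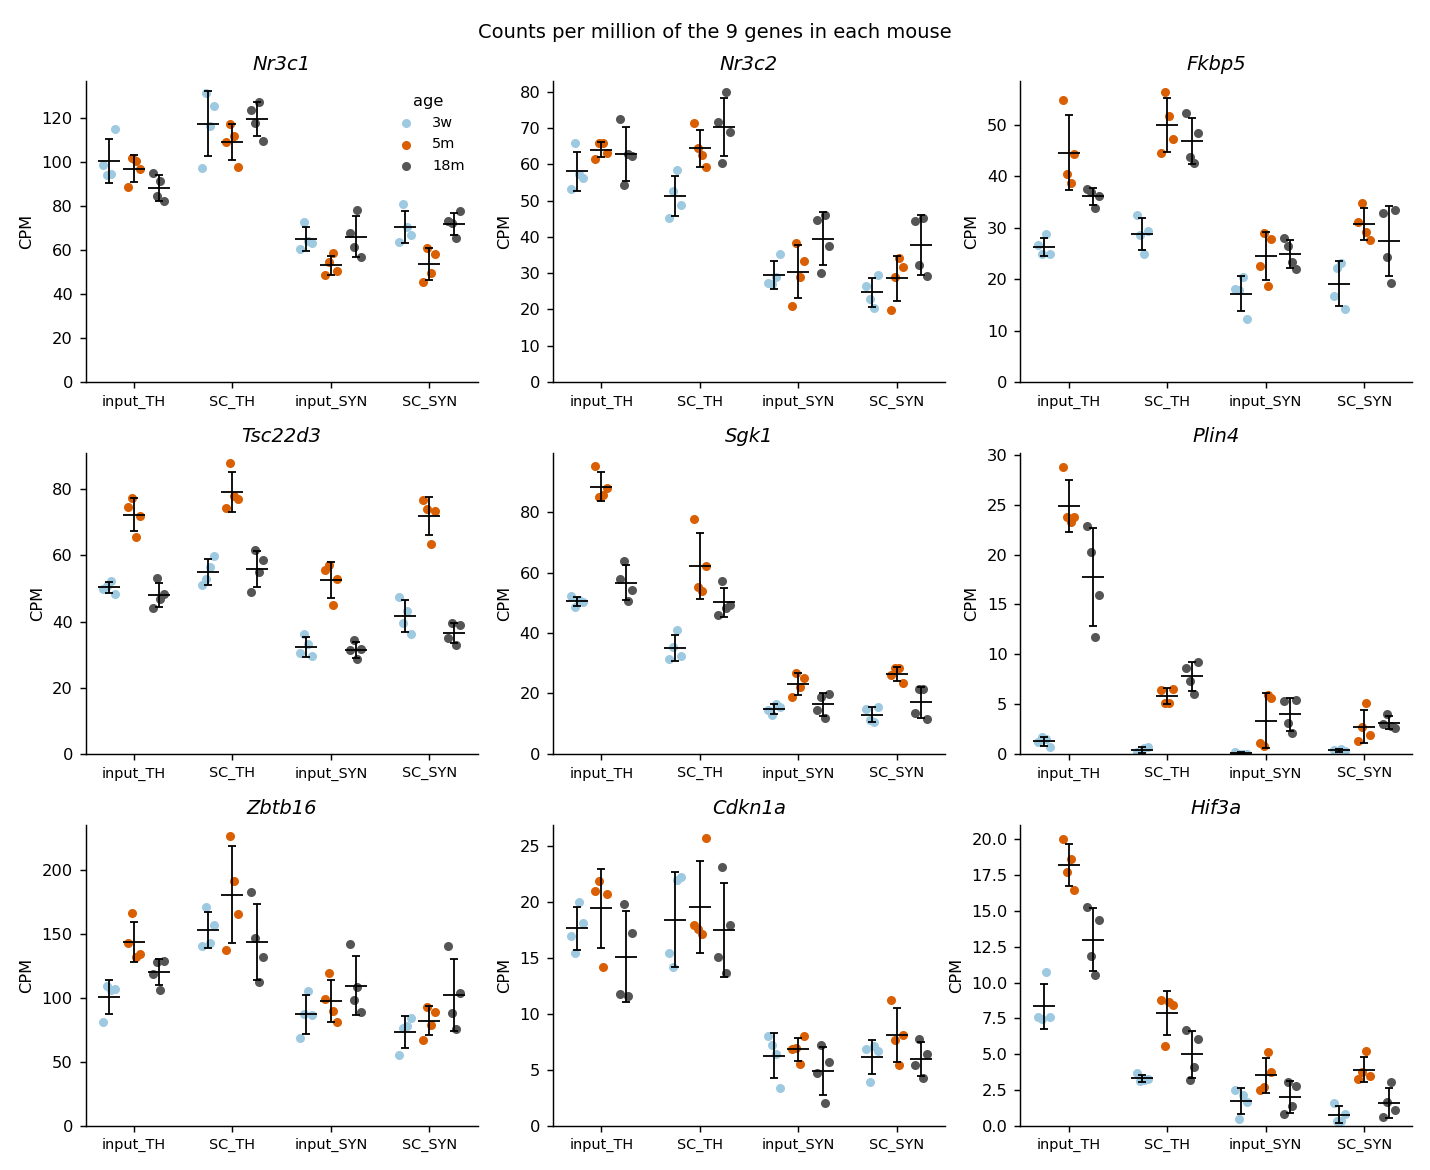
CPM of each gene (vertical axis, from 0, its own scale in each panel) in the 4 fractions (horizontal axis) at 3w, 5m and 18m. Points are mice, and bars give the mean and SD of 4 mice. Tsc22d3 is high at 5m and lower at both other ages. Sgk1 has its highest mean at 5m, but its 5m and 18m mice overlap in SC_TH and input_SYN. Plin4 is near 0 at 3w, Nr3c1 in SC_SYN lies lower at 5m than at both other ages, and Cdkn1a overlaps between the ages. CPM are scaled within a fraction.

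Between 3w and 5m, 6 of the 9 genes rose in input_TH, 6 in SC_TH, 2 in input_SYN and 5 in SC_SYN (adjusted p under 0.05, edgeR's quasi-likelihood test), and none fell. Of all genes tested, 4.76% rose in input_TH, 9.48% in SC_TH, 1.28% in input_SYN and 4.02% in SC_SYN. Tsc22d3 and Plin4 rose in all 4 fractions, Fkbp5, Sgk1 and Hif3a in all but input_SYN, Zbtb16 in input_TH and Nr3c2 in SC_TH. The median log2 fold change of the 9 genes was 0.52 in input_TH, 0.53 in SC_TH, 0.50 in input_SYN and 0.68 in SC_SYN, beside medians of all genes from -0.01 to 0.01. This comparison shares its 5m libraries with the one in which Tsc22d3 was first seen, so the call of Tsc22d3 in SC_SYN supports nothing. Between 3w and 18m, 3 of the 9 genes rose in input_TH, 4 in SC_TH, 1 in input_SYN and 1 in SC_SYN, beside 10.4%, 20.3%, 1.7% and 5.05% of all genes, and none fell. The counts at 5m include Plin4 in all 4 fractions and Hif3a in SC_SYN, and those at 18m Plin4 in all 4 fractions. With so few reads at 3w these genes passed the filter only through the later ages where they are high, so these calls support nothing. The count of 5 in SC_SYN at 5m became 4 whichever mouse of 3w or 5m was left out, and the 6 in SC_TH ranged from 5 to 6. The count of 2 in input_SYN at 5m became 1 without mouse 188 or 194, and at 18m the 3 in input_TH became 5 without mouse 197 and the 1 in SC_SYN became 2 without mouse 198. Both comparisons share the 3w libraries.

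Nr3c1 (chromosome 18), the glucocorticoid receptor, passed the test between ages in no fraction. In input_TH its level was 98.5, 94.1, 94.3 and 115 CPM in the mice of 3w, 88.5, 102, 101 and 96.8 CPM at 5m, and 95, 84.6, 91.3 and 82.1 CPM at 18m, so the 3 ages overlapped. In SC_SYN it was 63.6, 80.7, 70.4 and 67.0 CPM at 3w, 45.3, 61.1, 49.7 and 58.0 CPM at 5m, and 73.0, 72.0, 65.4 and 77.6 CPM at 18m. There every mouse of 5m lay below every mouse of 3w and of 18m. In SC_SYN the log2 fold change of 5m against 3w was -0.39 (standard error 0.12, adjusted p = 0.0624 from edgeR), and it passed with DESeq2 (adjusted p = 0.0249), with library sizes in place of TMM (adjusted p = 0.0496) and with all 48 libraries in one fit (adjusted p = 0.0124). In input_SYN every mouse of 5m likewise lay below every mouse of 3w, but 5m overlapped with 18m. In input_TH the log2 fold change of 5m against 3w was -0.05 (standard error 0.07, 95% interval from -0.20 to 0.10). At 18m against 3w Nr3c1 passed as lower in input_TH without mouse 195 (log2 fold change -0.22, adjusted p = 0.0439 from edgeR).

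Nr3c2 (chromosome 8, 76899442 to 77245012, plus strand), the mineralocorticoid receptor, rose in SC_TH from 51.3 ± 5.61 CPM at 3w (SD, n = 4) to 64.4 ± 5.17 at 5m and 70.3 ± 8.03 at 18m. The mice had 45.3, 52.8, 58.3 and 48.7 CPM at 3w, 71.5, 64.4, 62.7 and 59.2 CPM at 5m and 71.6, 60.5, 80.0 and 69.1 CPM at 18m, and neither later age overlapped with 3w. Against 3w the log2 fold change was 0.32 at 5m (standard error 0.10, adjusted p = 0.0372 from edgeR) and 0.45 at 18m (standard error 0.10, adjusted p = 0.00246). The call at 5m held in 7 of 15 alternative settings, with adjusted p from 0.0152 to 0.134, and that at 18m in 15 of 15. In SC_SYN the log2 fold change at 18m was 0.61 (standard error 0.19, adjusted p = 0.0561). Of the exon bases of Nr3c2, 247 (3.82%) lie on the strand opposite Gm10649, and the counting ignored strand.

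Fkbp5 (chromosome 17, 28399094 to 28517527, minus strand) encodes an immunophilin that lowers the affinity of the receptor complex for the hormone and is itself induced by it. In input_TH the mice had 26.6, 24.9, 28.7 and 24.8 CPM at 3w, 54.9, 40.4, 38.7 and 44.4 CPM at 5m and 37.6, 37.0, 33.8 and 36.2 CPM at 18m. The 3 ages did not overlap, with 5m above 18m and 18m above 3w. The log2 fold change of 5m against 3w was 0.76 in input_TH (standard error 0.09, adjusted p = 5.04e-05 from edgeR), 0.80 in SC_TH (standard error 0.11, adjusted p = 0.000199) and 0.68 in SC_SYN (standard error 0.19, adjusted p = 0.0439). Each of the 8 mice of these ages, left out in turn, took the SC_SYN value past the threshold, with adjusted p from 0.0532 to 0.108. At 18m Fkbp5 was still above 3w in input_TH, at 0.46 on the log2 scale (standard error 0.10, adjusted p = 0.00293), and in SC_TH, with 0.71 (standard error 0.11, adjusted p = 0.000125).

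Tsc22d3 (chromosome X, 140539528 to 140600659, minus strand) encodes GILZ, a leucine zipper protein that holds back NF-kappaB and AP-1. In input_TH its level was 49.9, 50.9, 52.4 and 48.4 CPM in the mice of 3w, 74.5, 77.3, 65.6 and 71.9 CPM at 5m, and 44.2, 53.0, 47.0 and 48.3 CPM at 18m. In SC_SYN it was 47.4, 39.5, 43.2 and 36.2 CPM at 3w, 76.7, 73.9, 63.6 and 73.5 CPM at 5m, and 34.9, 39.5, 33.0 and 38.9 CPM at 18m. In these fractions, as in SC_TH and input_SYN, each mouse of 5m lay above every mouse of the other 2 ages, while 3w and 18m overlapped. The rise from 3w to 5m was 0.52 on the log2 scale in input_TH (standard error 0.06, adjusted p = 4.59e-05 from edgeR), 0.53 in SC_TH (standard error 0.09, adjusted p = 0.0011) and 0.69 in input_SYN (standard error 0.12, adjusted p = 0.00349). It passed in each of these fractions under 15 of 15 alternatives, but they came from the same mice as SC_SYN. In SC_SYN the rise was 0.79 (standard error 0.12). That value is a description, because Tsc22d3 came to be looked at through its 5m and 18m libraries there. Between 3w and 18m Tsc22d3 passed in no fraction, with log2 fold changes of -0.07 in input_TH (95% interval from -0.21 to 0.07), 0.03 in SC_TH (from -0.16 to 0.22), -0.04 in input_SYN (from -0.30 to 0.22) and -0.19 in SC_SYN (from -0.44 to 0.07).

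Sgk1 (chromosome 10, 21882184 to 21999903, plus strand), a kinase that regulates ion channels and transporters, also had its highest mean at 5m in each fraction. Its ages were less separated than those of Tsc22d3. In SC_TH the mice of 18m, at 45.8 to 57.2 CPM, overlapped with 5m (54.1 to 77.9) and lay above 3w (31.4 to 40.9). In input_SYN those of 18m, at 12.0 to 19.9 CPM, overlapped with 5m (18.7 to 26.7). In input_TH the mice had 52.4, 48.7, 51.1 and 50.2 CPM at 3w, 95.5, 85, 85.6 and 88.1 CPM at 5m and 57.9, 64.0, 50.6 and 54.2 CPM at 18m. In SC_SYN they had 14.9, 11.1, 10.4 and 15.6 CPM at 3w, 26.0, 28.4, 28.4 and 23.5 CPM at 5m and 13.5, 21.3, 21.6 and 11.7 CPM at 18m, so that 5m stood apart and the other ages overlapped. The log2 fold change of 5m against 3w was 0.81 in input_TH (standard error 0.07, adjusted p = 6.47e-07 from edgeR), 0.82 in SC_TH (standard error 0.13, adjusted p = 0.000416) and 1.03 in SC_SYN (standard error 0.20, adjusted p = 0.00796). In input_SYN it was 0.66 (standard error 0.19, adjusted p = 0.0632), and it passed there in 3 of 15 alternatives. At 18m Sgk1 was above 3w in SC_TH, at 0.50 on the log2 scale (standard error 0.12, adjusted p = 0.00453), and in input_TH the value was 0.16 (standard error 0.07, adjusted p = 0.0981).

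Plin4 (chromosome 17, 56100591 to 56109803, minus strand), a coat protein of lipid droplets, showed the largest rise of the 9 in each fraction. In input_TH it was at 1.22, 1.72, 1.44 and 0.679 CPM at 3w, 28.8, 23.8, 23.2 and 23.8 CPM at 5m and 22.9, 20.2, 11.7 and 16 CPM at 18m. The 54 reads of 3w and the 1097 of 5m in input_TH gave a ratio of 19.8 (exact 95% counting interval from 15.1 to 26.5), and the 772 reads of 18m gave 14.0 against 3w (from 10.7 to 18.9). These intervals, like those below, cover counting error only. In SC_SYN 8 reads at 3w, 116 at 5m and 151 at 18m gave ratios of 8.06 (from 3.96 to 19.1) and 9.81 (from 4.85 to 23.1). In input_SYN, with 1 read in all 4 libraries of 3w and 43 at 5m, the ratio of 42.3 had an interval from 7.20 to 1710. In input_TH 1 library of 3w held under 10 reads, so Plin4 passed the filter there through the later ages. Its tests in input_TH are not given as support. In the other 3 fractions all 4 libraries of 3w held under 10 reads, with 7 reads in all in SC_TH, so their tests are not given as support, and the call in input_SYN at 5m was lost without mouse 188 (adjusted p = 0.0708) and without mouse 194 (adjusted p = 0.0527). In input_SYN at 5m the mice were at 1.10, 0.773, 5.89 and 5.60 CPM, which fall into a low and a high pair.

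Hif3a (chromosome 7, 17031507 to 17062427, minus strand), an inhibitory member of the hypoxia-inducible factor family, had 7.60, 7.47, 10.7 and 7.57 CPM at 3w, 20.0, 17.7, 18.6 and 16.5 CPM at 5m and 15.3, 11.8, 10.5 and 14.3 CPM at 18m in input_TH. Each mouse of 5m was above each of the other ages. The log2 fold change of 5m against 3w was 1.13 in input_TH (standard error 0.14, adjusted p = 3.58e-05 from edgeR) and 1.26 in SC_TH (standard error 0.25, adjusted p = 0.00299). In SC_SYN the 3w value rested on 18 reads in 4 libraries, all under 10 reads, so the gene passed the filter through 5m and no test is given, and the ratio of pooled reads was 5.13 (exact 95% counting interval from 3.15 to 8.87). At 18m Hif3a was above 3w in input_TH, at 0.65 on the log2 scale (standard error 0.14, adjusted p = 0.00359).

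Zbtb16 (chromosome 9, 48654297 to 48836222, minus strand) encodes the zinc finger transcription factor PLZF. In input_TH the mice had 80.9, 109, 106 and 107 CPM at 3w, 143, 166, 132 and 134 CPM at 5m and 119, 128, 106 and 129 CPM at 18m, and 5m lay above both other ages. The log2 fold change of 5m against 3w was 0.51 (standard error 0.09, adjusted p = 0.00163 from edgeR). In the other 3 fractions it was between 0.16 and 0.24 and did not pass. At 18m the sign of the log2 fold change against 3w was negative in SC_TH, at -0.09 (standard error 0.15), and positive in SC_SYN, at 0.47 (standard error 0.18, adjusted p = 0.122). In input_TH it did not pass, but with DESeq2 it passed as higher, at 0.26 (adjusted p = 0.0467). With edgeR it passed there without a filter (adjusted p = 0.0142), with only the 2 ages compared (0.0411) and without mouse 188 (0.0491) or 197 (0.0344). In input_SYN the mean went from 87.0 CPM at 3w to 109 at 18m and did not pass. The highest SC_SYN library of 18m, at 141 CPM, came from mouse 195, and the other 3 had from 75.3 to 104 CPM.

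Cdkn1a (chromosome 17, 29090976 to 29100727, plus strand), the cell cycle inhibitor p21 that is also a target of p53 and a marker of senescent cells, passed the test between ages in no fraction. In input_TH it was at 16.9, 15.4, 20.0 and 18.1 CPM at 3w, 21.0, 21.9, 14.2 and 20.7 CPM at 5m and 11.7, 19.8, 11.6 and 17.2 CPM at 18m, and the 3 ages overlapped. Against 3w, Cdkn1a at 18m had a log2 fold change of -0.23 in input_TH (standard error 0.17, 95% interval from -0.58 to 0.12) and -0.09 in SC_TH (from -0.49 to 0.32). In the synaptosome fractions the intervals were wider, from -0.96 to 0.29 in input_SYN and from -0.60 to 0.54 in SC_SYN.

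**Figure D2:**
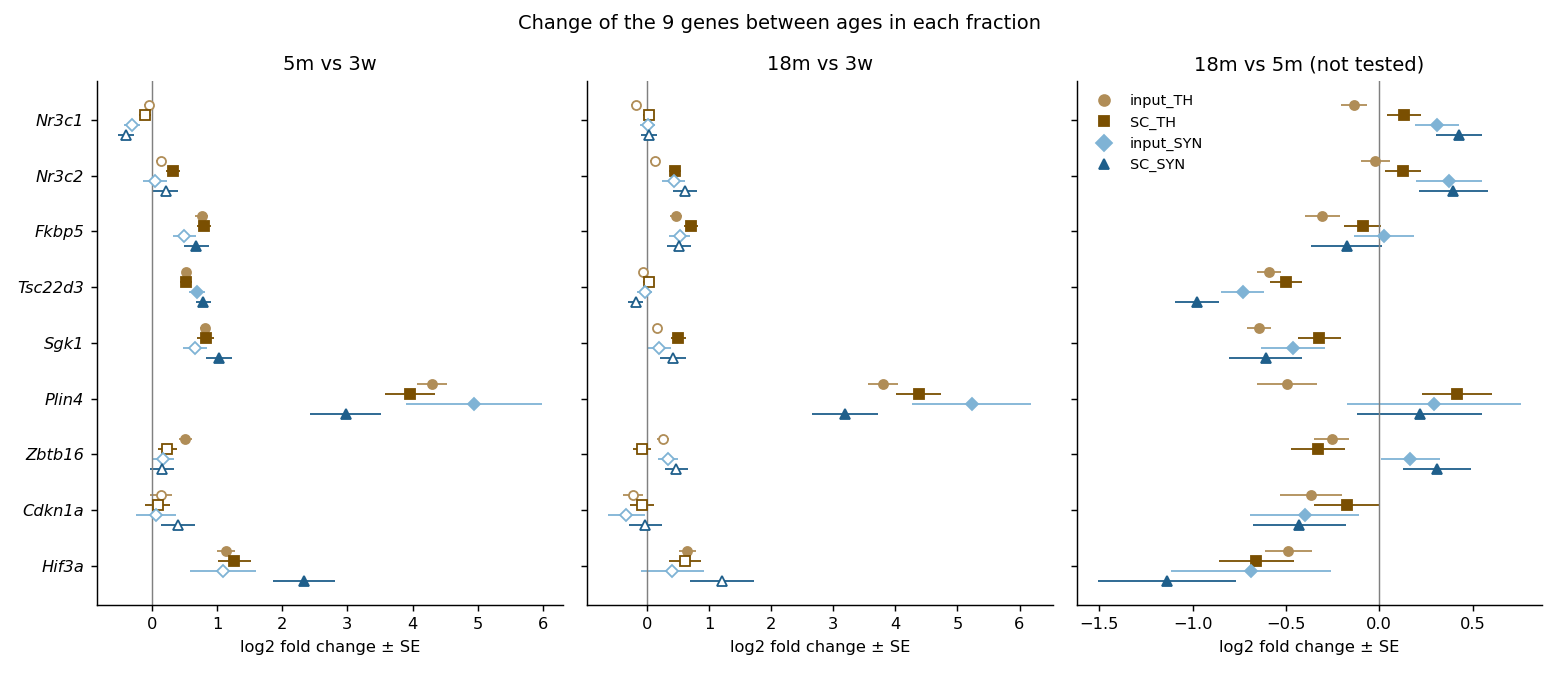
Log2 fold change with its standard error (horizontal axis) of each gene (vertical axis) between ages in the 4 fractions. In the first 2 panels filled symbols passed an adjusted p of 0.05 and open ones did not. In the third panel, which shows the comparison that prompted the choice of the genes, no test was made and all symbols are filled. Tsc22d3 lies at 0.52 to 0.79 in the first panel, at -0.19 to 0.03 in the second and at -0.98 to -0.50 in the third.

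Between 5m and 18m the values are given as a description, without a test, because this is the comparison from which Tsc22d3, and through it the other genes, came to be looked at. The log2 fold change was negative for 9 of the 9 genes in input_TH, 6 in SC_TH, 4 in input_SYN and 5 in SC_SYN. Tsc22d3 had -0.59 in input_TH (standard error 0.06), -0.50 in SC_TH (standard error 0.09), -0.73 in input_SYN (standard error 0.12) and -0.98 in SC_SYN (standard error 0.12). Sgk1 had -0.64, -0.32, -0.46 and -0.61 in the same order, and Hif3a -0.49, -0.66, -0.69 and -1.14. Fkbp5 had -0.30 in input_TH and values from -0.18 to 0.03 in the other 3 fractions. The receptors were near 0 or higher at 18m, with -0.14 for Nr3c1 and -0.02 for Nr3c2 in input_TH, 0.13 and 0.12 in SC_TH, 0.31 and 0.37 in input_SYN, and 0.42 and 0.40 in SC_SYN. Every mouse of 18m lay below every mouse of 5m for 6 of the 9 genes in input_TH (Fkbp5, Tsc22d3, Sgk1, Plin4, Zbtb16 and Hif3a), for Tsc22d3 in SC_TH and in input_SYN, and for Tsc22d3, Sgk1 and Hif3a in SC_SYN. Of all genes tested, 8.2% in input_TH, 5.86% in SC_TH, 2.92% in input_SYN and 6.21% in SC_SYN had every library of 18m below every library of 5m. Plin4 differed between fractions in sign, with -0.49 in input_TH (standard error 0.16) and 0.42 in SC_TH (standard error 0.19), a difference that was not tested.

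Synaptosomes were compared with total homogenate within each age. Scaling matters here, since with library sizes in place of TMM the median log2 fold change of all genes moved from -0.04, -0.09 and -0.07 to -0.59, -0.68 and -0.60 in SC at 3w, 5m and 18m, and from -0.18, -0.18 and -0.12 to -0.75, -0.83 and -0.70 in input. With TMM, 5 of the 9 genes passed in SC at 3w, 6 at 5m and 4 at 18m, beside 63.5%, 67.8% and 62.1% of all genes. In input 6, 6 and 5 passed, beside 71.0%, 72.7% and 72.3% of all genes. The 4 in SC at 18m became 2 without mouse 198, and the 6 in input at 3w became 3 without mouse 188.

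Sgk1 was lower in synaptosomes in all 6 comparisons, with log2 fold changes of -1.23, -1.34 and -1.13 in input and -0.89, -0.67 and -0.96 in SC at 3w, 5m and 18m (standard errors from 0.12 to 0.18). Cdkn1a was also lower in all 6, with values from -1.05 to -0.72. Hif3a and Plin4 were lower in input at each age, with Hif3a from -1.95 to -1.78 and Plin4 from -3.20 at 3w to -1.46 at 18m. Plin4 in input at 3w was called on 1 read in synaptosomes, and at 5m and 18m it had 43 and 96 reads there. Hif3a had 20, 44 and 50 reads in input_SYN at 3w, 5m and 18m. With so few synaptosomal reads, the calls of both in input, counted above, are not given as support. The same holds for Hif3a in SC at 3w, with 18 reads in synaptosomes.

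Tsc22d3 came to be looked at through its SC_SYN libraries of 5m and 18m, so its values there are a description, and the count of 6 at 5m includes it. In SC its log2 fold change was 0.14 at 3w (standard error 0.10, adjusted p = 0.243 from edgeR), 0.43 at 5m (standard error 0.10) and -0.06 at 18m (standard error 0.10). With library sizes the value at 5m became -0.16, and relative to the median of all genes it was 0.52 with TMM and 0.51 with library sizes. In input the values were -0.05, 0.14 and 0.01, and none passed. Zbtb16 was higher in synaptosomal input at 3w, with 0.34 (standard error 0.13, adjusted p = 0.0243), and at 18m, with 0.46 (standard error 0.13, adjusted p = 0.00198), both of which turned negative with library sizes, to -0.23 and -0.11. The call at 3w was also lost with DESeq2 (adjusted p = 0.0823), RLE size factors (0.0807), all 48 libraries in one fit (0.0665), at least 10 counts in every library (0.694) and without mouse 188 (0.0566) or 189 (0.103), and that at 18m with at least 10 counts in every library (adjusted p = 0.231). In SC Zbtb16 was lower at 3w and 5m, with -0.51 and -0.57, and at 0.06 (standard error 0.17) at 18m. The receptors were lower at 5m, with -0.46 for Nr3c1 and -0.60 for Nr3c2 in SC and -0.28 and -0.49 in input. Relative to the median of all genes these were -0.37 and -0.51 in SC and -0.10 and -0.31 in input. Nr3c2 was lower at 3w as well, with -0.51 in SC and -0.43 in input.

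**Figure D3:**
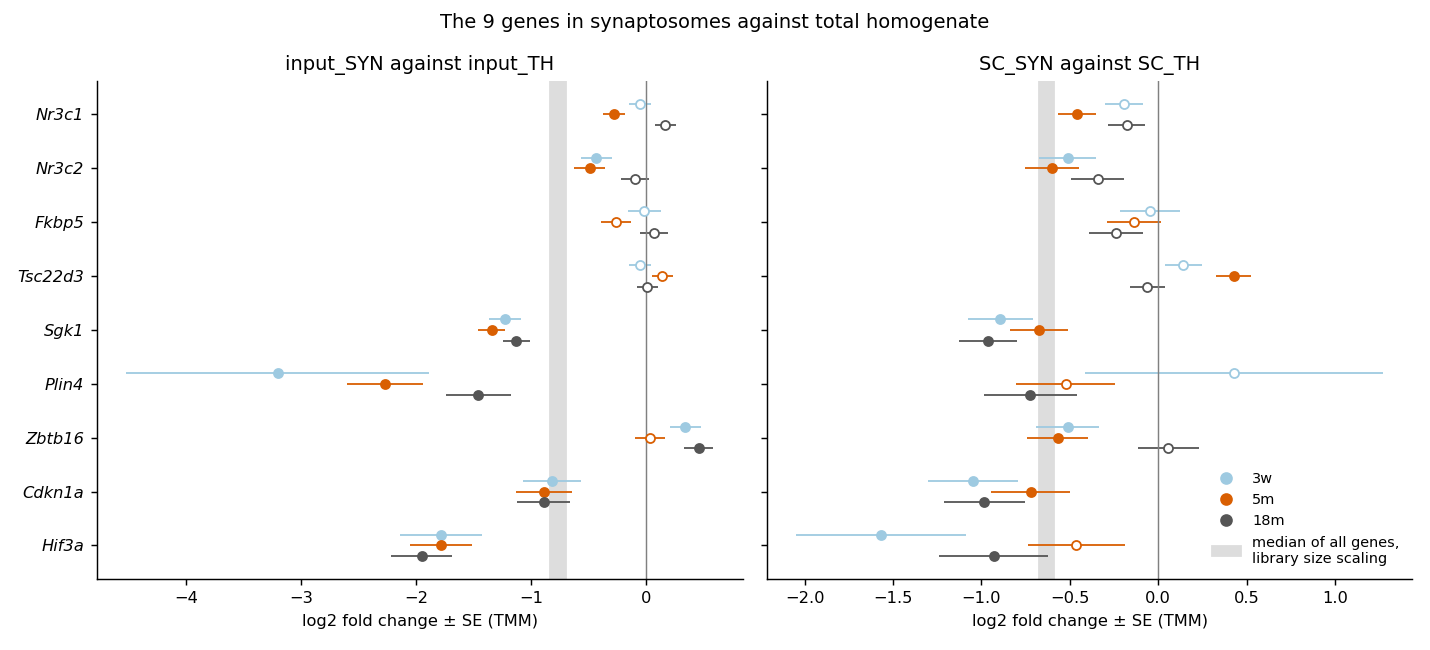
Log2 fold change with its standard error (horizontal axis) of each gene (vertical axis) in synaptosomes against total homogenate, in input RNA on the left and in SC on the right, at 3 ages. Filled symbols passed an adjusted p of 0.05. The points are scaled by TMM, under which the medians of all genes were -0.18 to -0.12 in input and -0.09 to -0.04 in SC. The grey band spans the medians of all genes at the 3 ages under library sizes, from -0.83 to -0.70 in input and from -0.68 to -0.59 in SC. It shows the shift from the scaling and is not the reference for the points. Tsc22d3 at 5m in SC stands at 0.43.

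Whether the change from 3w to 5m differed between synaptosomes and homogenate was tested as an interaction. None of the 9 genes passed in SC or in input, where 0.0301% and 0.0224% of all genes did. None of the 9 had an unadjusted p under 0.05 in edgeR's test of either, and DESeq2 called none. For Tsc22d3 the difference of the log2 changes was 0.28 in SC (95% interval from -0.01 to 0.58, adjusted p = 0.644 from edgeR) and 0.19 in input (from -0.08 to 0.47). For Sgk1 in SC it was 0.22 (from -0.28 to 0.72).

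RNA that sedimented through the cushion was compared with the input of the same compartment, as the mean over the 3 ages. In synaptosomes Tsc22d3 was higher in SC, at 0.31 on the log2 scale (standard error 0.07, adjusted p = 0.000503 from edgeR), and no other of the 9 genes passed, beside 43.2% of all genes. These SC_SYN libraries include those through which Tsc22d3 was chosen. With the mouse as a block 2 genes passed, the second being Zbtb16, lower in SC at -0.23 (adjusted p = 0.0211). In the homogenate 7 of the 9 genes passed, beside 75.8% of all genes, and 8 with the mouse as a block, which added Cdkn1a at 0.16 (adjusted p = 0.039). Higher in SC were Zbtb16 at 0.46, Nr3c1 at 0.34, Fkbp5 at 0.28 and Tsc22d3 at 0.22, with standard errors from 0.04 to 0.08. Lower in SC were Plin4 at -1.61 (standard error 0.19), Hif3a at -1.22 (standard error 0.11) and Sgk1 at -0.33 (standard error 0.06).

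The genes whose pattern was most like that of Tsc22d3 were ranked by Pearson's r of log2 CPM over the 48 libraries of 12 mice. The mean of each fraction was taken out first. Ranks are among 11568 genes with a symbol that passed the filter in all fractions. Symbols of the Gm, AC, AL, Rik and -ps kinds were left out. The 4 libraries of a mouse share the animal, so r is a description. Among the first 5 were Efnb1 (ephrin-B1, r = 0.87), P4ha1 (a subunit of collagen prolyl hydroxylase, r = 0.82), Per1 (a core gene of the circadian clock, r = 0.79) and Adamts2 (a procollagen peptidase, r = 0.76). Efnb1 in SC_SYN had 27.2 ± 5.44 CPM at 3w, 41.3 ± 6.71 at 5m and 22.0 ± 5.02 at 18m (SD, n = 4). Of the 9 genes Sgk1 came nearest to Tsc22d3, at rank 12 (r = 0.73), followed by Hif3a at rank 96 (r = 0.60), Cdkn1a at rank 183 (r = 0.54) and Fkbp5 at rank 308 (r = 0.50). Plin4 stood at rank 1664 (r = 0.30), Zbtb16 at rank 3671 (r = 0.15) and Nr3c2 at rank 8888 (r = -0.23). Nr3c1 was near the other end, at rank 11476 (r = -0.58). For Fkbp5 the first 5 included Crebl2 (r = 0.84), Mettl7a1 (r = 0.83), Crim1 (r = 0.81) and Aldh2 (r = 0.81), and Plin4 stood at rank 22 (r = 0.75). The other members ranked lower for Fkbp5, with Zbtb16 at 466, Sgk1 at 528, Tsc22d3 at 631 and Hif3a at 1013. Nr3c2 was at rank 2581, Cdkn1a at 3878 and Nr3c1 at 9304 (r = -0.23).

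A further 42 genes of the pathway were listed by role: 25 hormone-induced transcripts, 10 genes of the receptor complex and its coactivators, 4 of steroid handling and 3 of the corticotropin-releasing hormone system. Between 3w and 5m, 12 rose and 4 fell of 40 tested in input_TH, 13 rose and 3 fell of 40 in SC_TH, 2 rose of 38 in input_SYN, and 5 rose and 2 fell of 39 in SC_SYN. With all 48 libraries in one fit 6 passed in input_TH, 6 in input_SYN and 13 in SC_SYN. The 16 calls in SC_TH became 10 without mouse 187 or mouse 194, and the 7 in SC_SYN became 4 without mouse 188, 190, 191 or 192. Of all genes 7.05% fell in input_TH, 8.46% in SC_TH, 1.94% in input_SYN and 4.02% in SC_SYN, beside the shares that rose as given above. The median log2 fold change of the listed genes was 0.17, 0.27, 0.10 and 0.21 in the same order. This comparison shares its 5m libraries with the one that prompted the choice of the pathway. The 42 were also listed with earlier results of these data known. Its calls, here and below, are therefore not independent support.

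All of the hormone-induced transcripts that passed had risen, 10 of 24 in input_TH, 10 of 24 in SC_TH, 2 of 22 in input_SYN and 4 of 23 in SC_SYN. Per1 rose in all 4 fractions, with a log2 fold change of 0.46 in input_TH (standard error 0.13, adjusted p = 0.0282 from edgeR), 0.96 in SC_TH (standard error 0.14, adjusted p = 0.000293), 0.88 in input_SYN (standard error 0.17, adjusted p = 0.00705) and 1.18 in SC_SYN (standard error 0.20, adjusted p = 0.00373). In SC_SYN it went from 48.7 ± 10.4 CPM at 3w to 110 ± 16.1 at 5m (SD, n = 4). Irs2, an adaptor of the insulin receptor, rose by 0.50 on the log2 scale in input_TH, 1.09 in SC_TH and 1.13 in SC_SYN, and Klf15, a transcription factor of amino acid breakdown, by 0.49 and 0.83 in the homogenate fractions. Arrdc2, an arrestin-like protein, rose by 1.20 in SC_TH, and Pdk4, which restrains pyruvate oxidation, by 0.73 in SC_SYN. Fam107a, an actin-binding protein induced by stress, rose by 0.48 in input_SYN. These rises were not limited to the fractions named. Klf15 also passed as higher in SC_SYN, Pdk4 and Fam107a in input_TH and SC_TH, and Arrdc2 in input_TH.

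The genes of steroid handling that passed had fallen. Srd5a1, the reductase that inactivates corticosterone, fell from 12.0 ± 1.09 to 5.17 ± 0.568 CPM in input_TH (SD, n = 4), or -1.21 on the log2 scale (standard error 0.12, adjusted p = 4.37e-06 from edgeR), and from 8.61 ± 1.57 to 3.81 ± 1.18 CPM in SC_SYN, or -1.16 on the log2 scale (standard error 0.22, adjusted p = 0.00669). In SC_TH Srd5a1 fell by 0.71 on the log2 scale (adjusted p = 0.0259 from edgeR). Hsd11b1, which regenerates the active hormone, likewise passed as lower in input_TH, SC_TH and SC_SYN. Crhr1, the receptor of corticotropin-releasing hormone, fell in input_TH, at -0.60 on the log2 scale (standard error 0.09, adjusted p = 0.000188).

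Between 5m and 18m, 7 of the 42 fell and 2 rose in input_TH, and 3 fell and 1 rose in SC_TH. This comparison prompted the choice of the pathway, and the 42 were listed with earlier results of these data known. The calls here and in the synaptosome fractions below are therefore not independent support. Of all genes 7.35% fell and 8.18% rose in input_TH, and 1.79% fell and 0.377% rose in SC_TH. In input_TH the lowest adjusted p belonged to Ncoa3, a coactivator, with a log2 fold change of -0.28 (adjusted p = 0.0027 from edgeR), Nfkbia, the inhibitor of NF-kappaB, with -0.68 (adjusted p = 0.00271), Errfi1, an inhibitor of the EGF receptor, with -0.50 (adjusted p = 0.00571) and Arrdc3 with -0.30 (adjusted p = 0.00948). In SC_TH Per1 fell from 197 ± 20.6 CPM at 5m to 103 ± 24.6 at 18m (SD, n = 4), or -0.94 on the log2 scale (standard error 0.13, adjusted p = 0.00302), and Ddit4, an inhibitor of mTORC1, and Dusp1, a MAP kinase phosphatase, fell by 0.66 and 0.69 on the log2 scale. Crhbp, which binds corticotropin-releasing hormone, rose there by 0.57. The 9 calls in input_TH became 2 with all 48 libraries in one fit and 14 without mouse 195. The 4 calls in SC_TH became 1 without mouse 193 or mouse 197 and 2 without mouse 192 or mouse 195.

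In the synaptosome fractions none of the 42 passed between 5m and 18m in edgeR's test on the 12 libraries of a fraction. The shares of all genes that passed there were 0.0308% higher and 0.108% lower in input_SYN, and 0.00702% each way in SC_SYN. At an unadjusted p under 0.05 there were 5 of the list in input_SYN and 9 in SC_SYN, edgeR without a filter called 1 in input_SYN and 3 in SC_SYN, edgeR with all 48 libraries in one fit called 8 in SC_SYN, and DESeq2 called 1 (Per1) in input_SYN and 4 (Per1, Dusp1, Ddit4 and Pdk4) in SC_SYN.

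**Figure D4:**
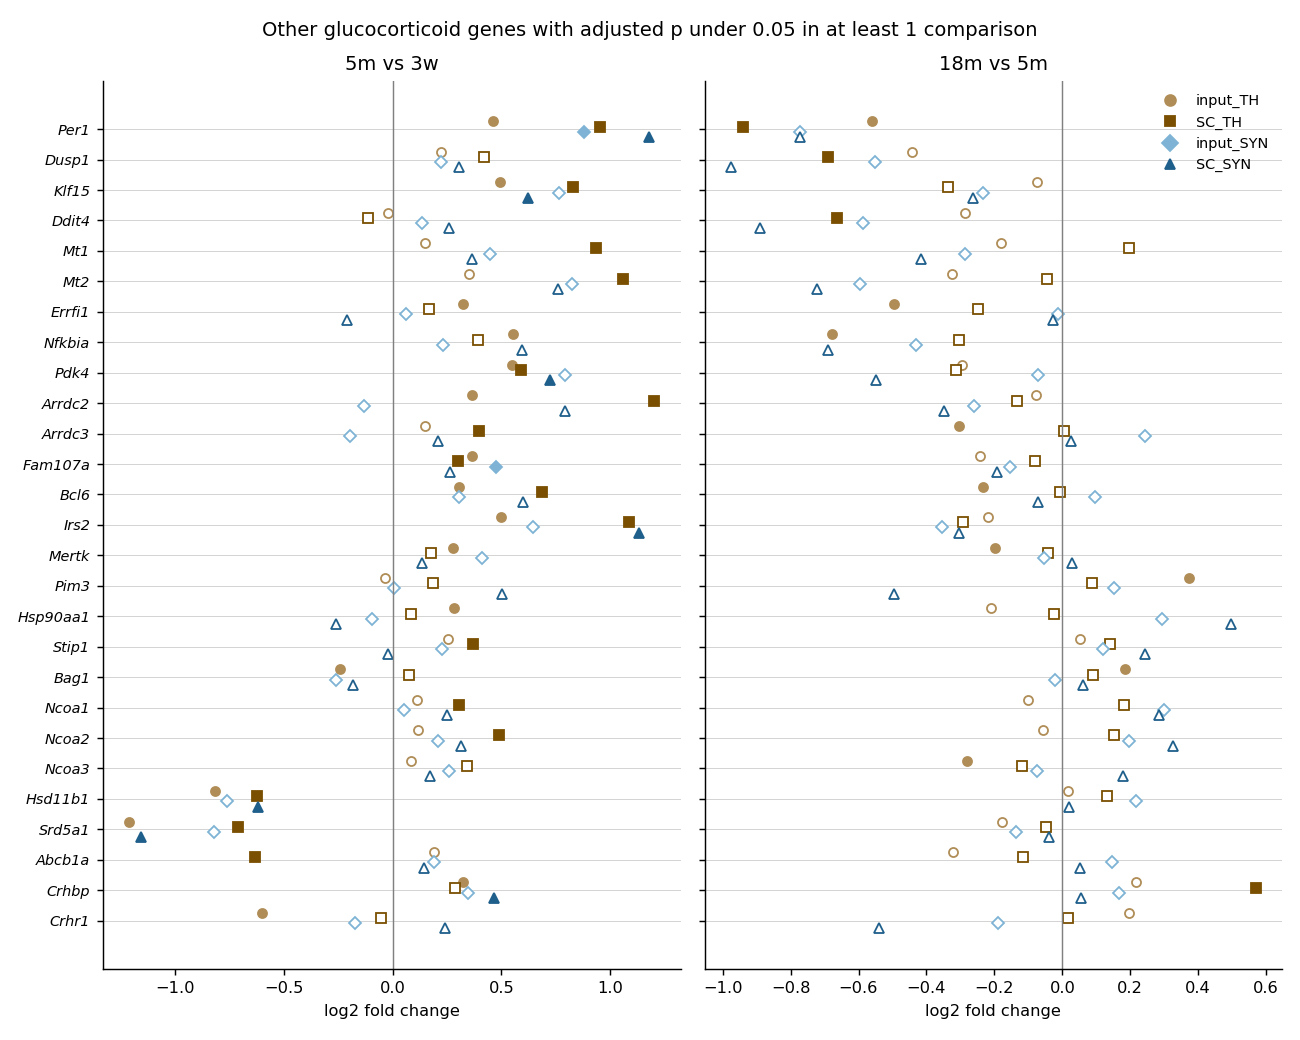
Log2 fold change (horizontal axis) of the 27 listed genes that passed at least once (vertical axis), from 3w to 5m on the left and from 5m to 18m on the right, in the 4 fractions. Filled symbols passed an adjusted p of 0.05. Per1 is filled in all 4 fractions on the left, at 0.46 to 1.18. Both panels share the 5m libraries, and the right one shows the comparison that prompted the choice of the pathway.

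Markers of cell types moved with age and compartment too, and their part in these results was not tested. Fewer cells of a type and less RNA per cell cannot be told apart in these samples. Of 7 oligodendrocyte markers, 7 fell from 3w to 5m in each fraction, and their summed level in input_TH went from 6536 to 8143 CPM at 3w to 2590 to 2917 at 5m and 2936 to 3417 at 18m. Of 8 astrocyte markers, 3 fell from 3w to 5m in input_TH, 3 in SC_TH, 1 in input_SYN and none in SC_SYN. Of 7 microglial markers 4 rose in SC_SYN, and their summed level there was 399 to 470 CPM at 3w, 641 to 767 at 5m and 480 to 749 at 18m. Between 5m and 18m 4 of 7 endothelial markers fell in input_TH and 3 of 4 nuclear transcripts fell in SC_TH. In input_TH 4 of 7 neuronal and 3 of 7 oligodendrocyte markers rose over the same ages. In SC_SYN none of the markers passed in that comparison. Synaptosomes held more of 8 of 8 astrocyte markers than the homogenate at each age and in both kinds of RNA, and less of 5 of 5 erythrocyte markers, with TMM and with library sizes alike. With TMM, 6 or 7 of 7 microglial and 4 to 7 of 7 oligodendrocyte markers were also higher, while 3 oligodendrocyte markers were lower in input at 18m. Of 7 neuronal markers, 5 were lower and 2 higher in SC at each age, and in input 3 were higher and from 1 to 3 lower. The marker Acta2 of mural cells had no read in input_SYN at 5m, and no other marker was at 0 in all libraries of a group.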

How the data were processed

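Cortex RNA of 12 mice gave 48 libraries, grouped by compartment, kind of RNA and age from the sample labels. The authors depleted rRNA, made directional libraries with unique molecular identifiers (whose use in counting is not given in the sources used here), aligned reads to GRCm38 with TopHat2 2.1, per the submitters' processing notes, and deposited raw counts per gene from featureCounts, without strand. Symbols and exon lengths came from GENCODE for GRCm38 and matched 48073 of 48526 identifiers.

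Counts were fitted over all genes with edgeR 4.0.16 in R 4.3.3 (quasi-likelihood test, TMM, filterByExpr, Benjamini-Hochberg, threshold 0.05). Age comparisons used the 12 libraries of a fraction, and comparisons of compartments or kinds of RNA the 24 libraries of both. Standard errors are the log2 fold change over the square root of the F statistic. The 95% intervals use the degrees of freedom of the same test. Log2 CPM for the ranking of similar genes used a prior count of 2. The fits were tested on counts drawn with known changes. DESeq2 1.42.0 and other settings served as alternatives.

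The members and lists were chosen with earlier results of these data known. By the rule for names, all 9 genes are described, and of the 42 others those with an adjusted p under 0.05, at most 4 per comparison and fraction in order of p, with the rest counted. Hsd11b1, Per1 in input_TH and Srd5a1 in SC_TH from 3w to 5m were named after their values were seen. The same holds for the further fractions of Klf15, Pdk4, Arrdc2 and Fam107a and for the genes called with DESeq2 alone. The numbers 187 to 198 of the labels name the mice, so libraries of a mouse are paired across fractions. Across pairs of fractions, the median correlation of the deviations of libraries of a mouse from their group mean lay between -0.05 and 0.18. Replicate libraries differed by more than counting noise (chi-square per degree of freedom from 2.18 to 36.4 over 72 pairs). A sequencing run is not given per library in the sources used here, so no run could be taken out. At 3w the median depth was 4448523 reads in SC_TH and 5956008 in SC_SYN, against 8643431 and 10290948 at 5m, so low genes were least precise at 3w. Some genes of the ranking by similarity are not reported here.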

Additional observations from a re-analysis of the deposited data

Results flagged for a closer look

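In 8 of 108 groups of 4 mice, 1 mouse lay far from the other 3, judged by its gap to the nearest mouse as a share of the range of the group. Chance alone gives about 1 in 20 such groups, or 5.4 of 108. Plin4 in input_TH at 5m was at 28.8 CPM in mouse 191 and from 23.2 to 23.8 in the others (share 0.897), and in input_SYN at 3w it was at 0.229 CPM in mouse 187 and at 0 in the others (share 1.0), which is 1 read. Zbtb16 in input_TH at 3w was at 80.9 CPM in mouse 187 and from 106 to 109 in the others (share 0.898). Cdkn1a stood apart in input_TH at 5m (mouse 193, 14.2 CPM against 20.7 to 21.9, share 0.851), in SC_TH at 5m (mouse 194, 25.7 CPM against 17.1 to 17.9, share 0.906) and in SC_SYN at 3w (mouse 188, 3.87 CPM against 6.66 to 7.11, share 0.861). Hif3a stood apart in input_TH at 3w (mouse 189, 10.7 CPM against 7.47 to 7.60, share 0.96) and in SC_TH at 5m (mouse 192, 5.57 CPM against 8.42 to 8.80, share 0.881). No mouse stood apart in this way for Tsc22d3, Sgk1, Fkbp5, Nr3c1 or Nr3c2 in any of the 12 groups, and no gene moved in opposite directions with age in synaptosomes and homogenate with separated groups.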

How the results depend on the processing

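Counts stayed within 1.5 times of the main count in 183 values under an alternative and moved further in 27, and with 1 mouse left out they stayed so in 205 and moved further in 19. With all 48 libraries in one fit, 6 of the 42 other genes passed in input_TH from 3w to 5m (main 16) and 2 from 5m to 18m (main 9), 6 in input_SYN (main 2) and 13 in SC_SYN (main 7) from 3w to 5m, and 8 in SC_SYN from 5m to 18m (main 0). In the same fit 2 of the 9 members passed from 3w to 18m in input_SYN (main 1) and 6 in SC_SYN (main 1). With at least 10 counts in every library the members that passed were 1 in input_SYN at 5m (main 2), 0 at 18m (main 1), 3 in SC_SYN at 5m (main 5), 0 at 18m (main 1) and 3 in input_SYN against input_TH at 18m (main 5), and 2 had a negative log2 fold change in input_SYN from 5m to 18m (main 4). This filter leaves Plin4 untested in each fraction, Hif3a in the synaptosome fractions and Cdkn1a in input_SYN, but in input_SYN against input_TH at 18m it also took the call from Zbtb16 and gave one to Nr3c2 and Tsc22d3. DESeq2 gave 2 members in SC_SYN at 18m (main 1) and, of the others, 5 in input_SYN from 3w to 5m (main 2), and 1 in input_SYN and 4 in SC_SYN from 5m to 18m (main 0). Without a filter these were 2, 6, 1 and 3. With only the 2 ages compared, 0 members passed in input_SYN at 18m and 5 others at 5m. Library sizes gave 8 members in SC_SYN against SC_TH at 3w (main 5), 9 at 18m (main 4) and 8 in input at 18m (main 5). The causes were not tested, unless named.

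Against the homogenate, library sizes reversed Tsc22d3 in SC at 3w (-0.41) and 5m (-0.16) and in input at 5m (-0.51) and 18m (-0.56), Zbtb16 in SC at 18m (-0.47) and in input at 3w (-0.23), 5m (-0.61) and 18m (-0.11), and Nr3c1 (-0.40) and Fkbp5 (-0.50) in input at 18m. At least 10 counts in every library reversed Tsc22d3 in input at 18m (-0.28). A further 85 values of single genes changed sign with no call either way or, for Plin4, moved with the prior count.

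Leaving out 1 mouse, members that passed ranged from 3 to 5 in input_TH at 18m against 3w (5 without mouse 197), from 1 to 2 in input_SYN at 5m (1 without mouse 188 or 194), from 1 to 2 in SC_SYN at 18m (2 without mouse 198), from 2 to 4 in SC_SYN against SC_TH at 18m (2 without mouse 198), from 3 to 6 in input at 3w (3 without mouse 188) and from 1 to 2 in SC against input of SYN (2 without mouse 195). In SC_SYN at 5m against 3w 4 members passed whichever mouse was left out (main 5), and in SC_TH from 5 to 6 (main 6). The others that passed ranged from 6 to 14 in input_TH from 5m to 18m (14 without mouse 195), from 10 to 16 in SC_TH from 3w to 5m (10 without mouse 187 or 194), from 1 to 5 in SC_TH from 5m to 18m, from 0 to 1 in input_SYN from 5m to 18m (1 without mouse 196) and from 4 to 7 in SC_SYN from 3w to 5m (4 without mouse 188, 190, 191 or 192).

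With the mouse as a block, 2 members passed in SC against input of SYN (main 1) and 8 in TH (main 7), and the counts of the other 8 paired comparisons were equal to the main ones. Within a fraction mice are nested in age, so no such fit exists. A prior count of 0.5 moved the mean log2 CPM difference of Plin4 from 3w to 5m to 4.33 in SC_TH and 3.93 in input_SYN.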

Other observations

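For the genes of the receptor complex and its coactivators, the median log2 fold change between 3w and 5m was 0.11 in input_TH, 0.17 in SC_TH, 0.07 in input_SYN and 0.02 in SC_SYN, and of 10 tested 1 rose and 1 fell in input_TH and 3 rose in SC_TH (Ncoa2, Stip1 and Ncoa1). The metallothioneins Mt1 and Mt2, which bind zinc and copper, rose in SC_TH from 39.4 ± 8.05 to 75.2 ± 29.1 CPM and from 23.4 ± 7.90 to 49.4 ± 16.3 CPM (SD, n = 4; adjusted p = 0.00719 and 0.00432 from edgeR). These genes were named after their values were seen.

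Within an age the 4 mice can be ordered by each gene in each fraction, which gives 36 orders for the 9 genes. At 5m mouse 192 was highest in 17 of 36, mouse 191 in 9, mouse 193 in 7 and mouse 194 in 3. At 3w the highest count was 12 of 36 (mouse 189), and at 18m 12 of 36 (mouse 196). The 4 fractions of a mouse share the animal, and no test was made.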
